A study of Mus musculus with 28 samples.

Results

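Fgfr3, Sox9, Slc4a4 and Aldoc are genes that astrocytes express, and here their H3K27me3 was followed in sorted mouse microglia. All regions of the deposited count table whose nearest named gene was one of these 4 were taken, each kept apart with its position relative to the transcription start site (TSS). They numbered 12 of 26326 regions: 3 at Fgfr3, 1 at Sox9, 7 at Slc4a4 and 1 at Aldoc. The microglia were sorted from adult male wild-type C57BL/6 mice. Mice on a regular diet gave the basal microglia, which had low surface CD44, CD45 and CD11b. Other mice ate 0.2% cuprizone, which destroys oligodendrocytes and so demyelinates the brain, for 4 weeks. Their microglia were sorted by 2 surface proteins into a CD229-CD11c- subset, a CD229+CD11c- subset and a CD229+CD11c+ subset. CD229 is a surface receptor of the SLAM family and CD11c is an integrin. Brains of 2 to 6 mice of 1 condition were pooled per sort. The counts cover 12 H3K27me3 libraries, with 3 per group and 7740002 to 11362168 tags in regions per library. Nothing in the labels says that replicates came from separate pools of mice, so p-values measure the spread between these libraries.

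H3K27me3 is placed by Polycomb repressive complex 2, whose catalytic subunit is EZH2, and in mammals it tends to collect at CpG-rich promoters of genes that a cell type does not use. Fgfr3 encodes a receptor tyrosine kinase for fibroblast growth factors that marks astrocytes and their precursors. Sox9 is an HMG-box transcription factor needed for the switch from making neurons to making glia, and in the adult brain it stays on in astrocytes. Slc4a4 encodes the electrogenic sodium bicarbonate cotransporter NBCe1, with which astrocytes buffer pH. Aldoc encodes aldolase C, the brain isozyme of a glycolytic enzyme and a common astrocyte marker. The mark alone was measured here, so whether the genes were silent in these cells was not tested.

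The 250 bases before the RefSeq starts of 3 of the 4 genes are shown because the results at these starts differ and so does their CpG content. They were taken from RefSeq, build GRCm38.p6 (the coordinates of mm10), are all on the plus strand, are written 5′ to 3′, and have each CpG (the letters CG, which read the same on both strands) in capitals. Among 32851 such windows of the genome the median held 6 CpGs, with quartiles at 2 and 16. The Fgfr3 window, chr5:33721474-33721723, held 19 CpGs, and 19.7% of windows held at least as many. The Slc4a4 window at the upstream start, chr5:88887010-88887259, held 44, a number reached by 0.539% of windows. The Slc4a4 window at the internal start, chr5:89027716-89027965, held 3, as many as or fewer than 71.0% of windows. The Aldoc window at the start nearest its region's centre, chr11:78323948-78324197, also held 3. A further start of Fgfr3 (chr5:33722056-33722305, 24 CpGs) and one of Aldoc (chr11:78322823-78323072, 5 CpGs) lie in the same regions and are not printed. Sox9 had no window in the RefSeq table used.
Fgfr3 upstream of its first start: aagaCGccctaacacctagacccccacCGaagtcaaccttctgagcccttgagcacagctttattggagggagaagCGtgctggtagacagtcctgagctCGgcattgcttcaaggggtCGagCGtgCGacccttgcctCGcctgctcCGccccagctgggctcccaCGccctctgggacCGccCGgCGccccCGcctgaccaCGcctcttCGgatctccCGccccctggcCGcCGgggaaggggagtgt
Slc4a4 upstream start: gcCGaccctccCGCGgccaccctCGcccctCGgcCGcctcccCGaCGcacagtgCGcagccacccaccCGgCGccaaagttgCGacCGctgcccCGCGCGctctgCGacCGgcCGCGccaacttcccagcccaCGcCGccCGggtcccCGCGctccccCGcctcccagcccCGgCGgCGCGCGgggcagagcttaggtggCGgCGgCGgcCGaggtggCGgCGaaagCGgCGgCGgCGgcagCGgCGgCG
Slc4a4 internal start: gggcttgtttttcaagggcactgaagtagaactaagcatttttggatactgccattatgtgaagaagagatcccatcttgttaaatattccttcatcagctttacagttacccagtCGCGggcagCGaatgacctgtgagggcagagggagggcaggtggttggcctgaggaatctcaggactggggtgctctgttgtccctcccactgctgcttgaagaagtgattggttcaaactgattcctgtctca
Aldoc start: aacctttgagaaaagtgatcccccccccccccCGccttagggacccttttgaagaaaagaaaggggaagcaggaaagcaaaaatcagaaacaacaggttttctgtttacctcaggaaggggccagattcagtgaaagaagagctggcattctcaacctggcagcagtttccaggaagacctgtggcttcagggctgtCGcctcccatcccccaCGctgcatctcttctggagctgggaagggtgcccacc

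In basal microglia all 12 regions carried the mark by the authors' calls, which were made on basal libraries that do not enter the comparisons below. Every region of the table was called on those same libraries, so the mark at all 12 follows from that selection. The enrichment values and their p-values are therefore a description. In the authors' deposited table, the log2 enrichment over input was 2.27 at Sox9 (adjusted p = 6.47e-14), 2.02 at the Fgfr3 gene, 1.98 at Aldoc and 1.82 at the upstream start of Slc4a4. The largest value of the 12, 3.03 with an adjusted p of 0.0267, belonged to the shortest region, in intron 12 of Slc4a4, which held few tags. The Sox9 value was above 94.0% of all regions and the Fgfr3 value above 88.3%. The region at Sox9 (chr11:112775283-112791073, 15.8 kb, centred +0.968 kb from the TSS in intron 1 of 2) covered the whole gene. At Fgfr3 the gene region (chr5:33718365-33733372, 15.0 kb, in intron 1 of 16) covered both starts of the RefSeq windows and the start used in the authors' annotation, from which its centre lay 2.10 kb downstream. Its centre was 4.14 kb after the first RefSeq start, and there were further intergenic regions centred 8.88 kb (chr5:33709408-33716275) and 28.7 kb (chr5:33684032-33701941) upstream. Of the 7 Slc4a4 regions, 1 lay over the upstream start (chr5:88877297-88891929, 14.6 kb, centred 2.65 kb before that TSS) and 1 over the internal start (chr5:89021989-89031692, 9.70 kb, intron 3 of 26). The other 5 were intronic. The upstream start is the first of the 2 in the RefSeq windows, and the RefSeq gene record of Slc4a4 begins 93.4 kb before it. Aldoc had a single region of 6.20 kb (chr11:78321517-78327717), centred in exon 2 of 8, which also covered 941 bp of the neighbouring gene Spag5. None of the 30 microglia markers checked, such as Tmem119, P2ry12 and Cx3cr1, had a region within 5 kb of its TSS. Regions nearest to 6 of them lay 30.1 kb or more away.

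Levels are given as CPM, the tags of a region scaled to a common total of tags in regions per library, with TMM factors. They are therefore relative to the other regions of the same library, and a change of the mark over the whole genome would not be seen. Per kb of region, the basal level was 4.02 ± 0.351 CPM (SD, n = 3) at the Slc4a4 upstream start, 3.95 ± 0.443 at the Fgfr3 gene, 3.70 ± 0.201 at Sox9 and 3.31 ± 0.308 at Aldoc. The ranges of 1 SD of the first 3 overlapped, and all 4 were above the median of all regions, 3.00 CPM per kb. In CD229+CD11c- microglia this order had spread out, from 6.97 ± 0.479 CPM per kb at the Fgfr3 gene through 5.76 ± 0.408 at Sox9 and 5.30 ± 0.308 at the Slc4a4 upstream start to 2.04 ± 0.372 at Aldoc. Neighbours in that order lay more than 1 SD apart, except Sox9 and Slc4a4, whose ranges of 1 SD met.

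Against basal microglia, H3K27me3 was higher in the CD229+CD11c- subset at Fgfr3, at Sox9 and at the upstream start of Slc4a4, and lower at Aldoc. The Fgfr3 gene rose 1.77-fold, Sox9 1.56-fold and the Slc4a4 start 1.32-fold, while Aldoc fell 1.62-fold. Of the 12 regions 4 were called higher and 1 lower at an adjusted p under 0.05 (edgeR quasi-likelihood test, Benjamini-Hochberg over all regions). In the same comparison 13% of all 26326 regions were called, 9.52% higher and 3.47% lower (2506 and 913 regions). The balance over all regions turned with total-count scaling, to 1578 higher and 3789 lower, and was 1177 and 713 with loess offsets. Loess offsets take out the dependence of fold changes on how enriched and how densely tagged a region was in basal cells. Of the 12 regions, 4 were called higher and 1 lower with total-count scaling, and 3 and 1 with the offsets. The 4 higher and 1 lower kept their signs in both. Among the 5054 regions with a TSS within 5 kb, 28.2% were called higher and 2.43% lower. The other 7 regions, of which 6 belong to Slc4a4, were not called.

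The Fgfr3 gene region measured 56.6, 54.3 and 66.8 CPM in the basal libraries (replicates 3, 4 and 5). In CD229-CD11c- microglia it measured 73.4, 69.9 and 54.5 CPM (replicates 1, 2 and 3, as in each subset). CD229+CD11c- microglia gave 111.2, 105.6 and 97.0 CPM, and CD229+CD11c+ microglia 90.4, 78.8 and 78.4 CPM. All libraries of both CD229+ subsets were above all 6 others, and the CD229+CD11c- libraries were above the CD229+CD11c+ ones. The log2 change against basal was 0.82 ± 0.10 (SE; adjusted p = 1.32e-05) in CD229+CD11c- microglia. It was 0.48 ± 0.10 (adjusted p = 0.00973) in CD229+CD11c+ microglia, a call lost without basal replicate 4 (0.42, adjusted p = 0.0854) or without CD229+CD11c+ replicate 1 (0.41, adjusted p = 0.0818). In the CD229-CD11c- subset the value was 0.15 ± 0.11, which did not pass (adjusted p = 0.983).

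The region 28.7 kb upstream of Fgfr3 overlapped no RefSeq gene and had a pattern close to that of the gene region. Its levels were 53.3, 58.5 and 61.4 CPM in basal, 65.9, 63.1 and 52.0 in the CD229-CD11c- libraries, 90.7, 84.7 and 69.6 in those of CD229+CD11c- cells and 75.3, 65.8 and 69.5 CPM for CD229+CD11c+ cells. Both CD229+ subsets lay wholly above basal, and the lowest CD229+CD11c- library was among the CD229+CD11c+ values. Its log2 change was 0.50 ± 0.10 (adjusted p = 0.00169) in CD229+CD11c- microglia and 0.28 ± 0.10 in CD229+CD11c+ microglia. The latter did not pass (adjusted p = 0.115), but did with the PE150 tag of the library titles, described below, as a covariate (adjusted p = 0.00256). It also passed in tagged libraries alone (adjusted p = 0.0339) and in the authors' deposited table (0.28, adjusted p = 0.0408), but under no other alternative. The smaller region between it and the gene, 8.88 kb upstream, held 13.9 ± 1.74 CPM (SD, n = 3) in basal and 17.1 ± 2.65 in CD229+CD11c- microglia, and its log2 value of 0.30 ± 0.15 did not pass (adjusted p = 0.22). Over the 12 libraries the log2 CPM of the gene region and of the region 28.7 kb upstream correlated with Pearson's r = 0.95, as a description of libraries that share groups and scaling. The ratio of the gene region to the region 28.7 kb upstream was higher than basal by 0.33 on the log2 scale in CD229+CD11c- microglia (exact permutation p = 0.1, two-sided, the smallest that 3 against 3 libraries allow; 0.171 after adjustment over 12 ratio tests).

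**Figure D1:**
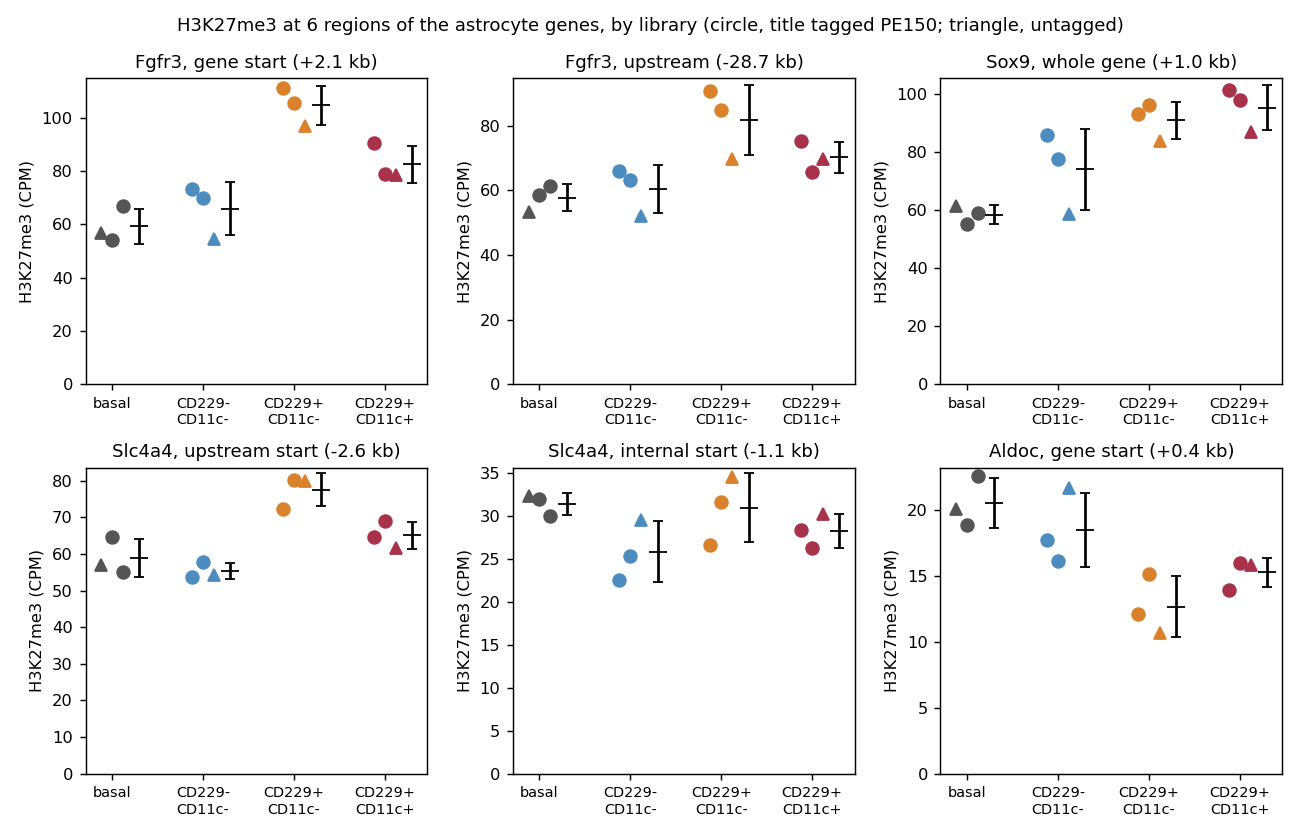
H3K27me3 in CPM (y axis, from 0) in each of the 12 libraries, by group (x axis), at 6 regions of the 4 genes; points are libraries (circles, PE150 in the title; triangles, not) and the bars mean ± SD. At the Fgfr3 gene the CD229+ libraries sit between 78.4 and 111.2 CPM, above all others, whereas at Aldoc the CD229+ libraries, at 10.7 to 16.0 CPM, sit below all basal ones.

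Sox9 stood at 61.4, 55.1 and 58.9 CPM in the basal libraries. The CD229-CD11c- libraries gave 86.0, 77.5 and 58.8 CPM, of which the first 2 were above every basal library and the third among them. CD229+CD11c- libraries held 93.1, 96.1 and 83.7 CPM and CD229+CD11c+ libraries 101.4, 97.8 and 86.8 CPM. The log2 change against basal was 0.64 ± 0.11 (adjusted p = 0.00029) for the CD229+CD11c- subset and 0.70 ± 0.11 (adjusted p = 0.000579) for CD229+CD11c+ cells. Between these 2 subsets Sox9 differed by 0.07 ± 0.11 (adjusted p = 0.856; 95% interval -0.14 to 0.27), whereas the Fgfr3 gene and the Slc4a4 start had point estimates below 0 there. In CD229-CD11c- microglia the value of 0.34 ± 0.11 did not pass (unadjusted p = 0.0053, adjusted p = 0.983). It passed without CD229-CD11c- replicate 3 (0.49, adjusted p = 0.0273). That library, like basal replicate 3 and replicate 3 of the other subsets, lacks the tag PE150 that the titles of the remaining libraries carry. What the tag stands for is not stated. Among tagged libraries the difference between CD229-CD11c- and basal microglia at Sox9 was 0.52, and in the untagged pair it was -0.06.

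At Slc4a4 the change against basal was found at the upstream start alone among its 7 regions. That region held 56.9, 64.7 and 55.0 CPM in basal and 53.7, 57.8 and 54.3 CPM in CD229-CD11c- microglia. It held 72.3, 80.3 and 80.0 CPM in CD229+CD11c- microglia, all above the other 9 libraries, and 64.5, 69.1 and 61.6 CPM in CD229+CD11c+ microglia, which overlapped basal. The log2 change was 0.40 ± 0.08 (adjusted p = 0.00213) for CD229+CD11c- cells and 0.14 ± 0.08 (adjusted p = 0.348) for CD229+CD11c+ cells. With the loess offsets the first fell to 0.20 and was no longer called (adjusted p = 0.208). This is the start with 44 CpGs in the window printed above.

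The region over the internal start of Slc4a4, which has 3 CpGs in its window, showed no such rise. It held 32.3, 32.0 and 29.9 CPM in basal, 22.5, 25.4 and 29.6 in the CD229-CD11c- libraries, 26.6, 31.7 and 34.6 in those of CD229+CD11c- cells and 28.4, 26.3 and 30.2 CPM for CD229+CD11c+ cells. Its log2 values were -0.02 ± 0.12 (adjusted p = 0.931) for CD229+CD11c- cells and -0.15 ± 0.12 (adjusted p = 0.515) for CD229+CD11c+ cells. In CD229-CD11c- microglia all 3 libraries were below the basal ones, and the value of -0.28 ± 0.12 did not pass (adjusted p = 0.983). The log2 ratio of the upstream to the internal start was 0.90 ± 0.10 (SD, n = 3) in basal, 1.10 ± 0.20 for the CD229-CD11c- subset, 1.33 ± 0.11 for CD229+CD11c- cells and 1.20 ± 0.18 for CD229+CD11c+ cells. In both CD229+ subsets it lay above basal in all 3 libraries, which gives the smallest exact permutation p possible, 0.1. The broad region in intron 2, centred 50.9 kb after the upstream start, was nearly level, with 42.0 ± 1.83 CPM in basal and 40.6 ± 2.35 in CD229+CD11c- microglia. The remaining 4 intronic regions had low counts and log2 values between -0.53 and 0.06 in CD229+CD11c- microglia. The lowest of these was the shortest region, 1.25 kb in intron 12 of 22, whose groups did not overlap at 2.67 to 3.11 against 1.29 to 2.47 CPM and which did not pass (adjusted p = 0.298).

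**Figure D2:**
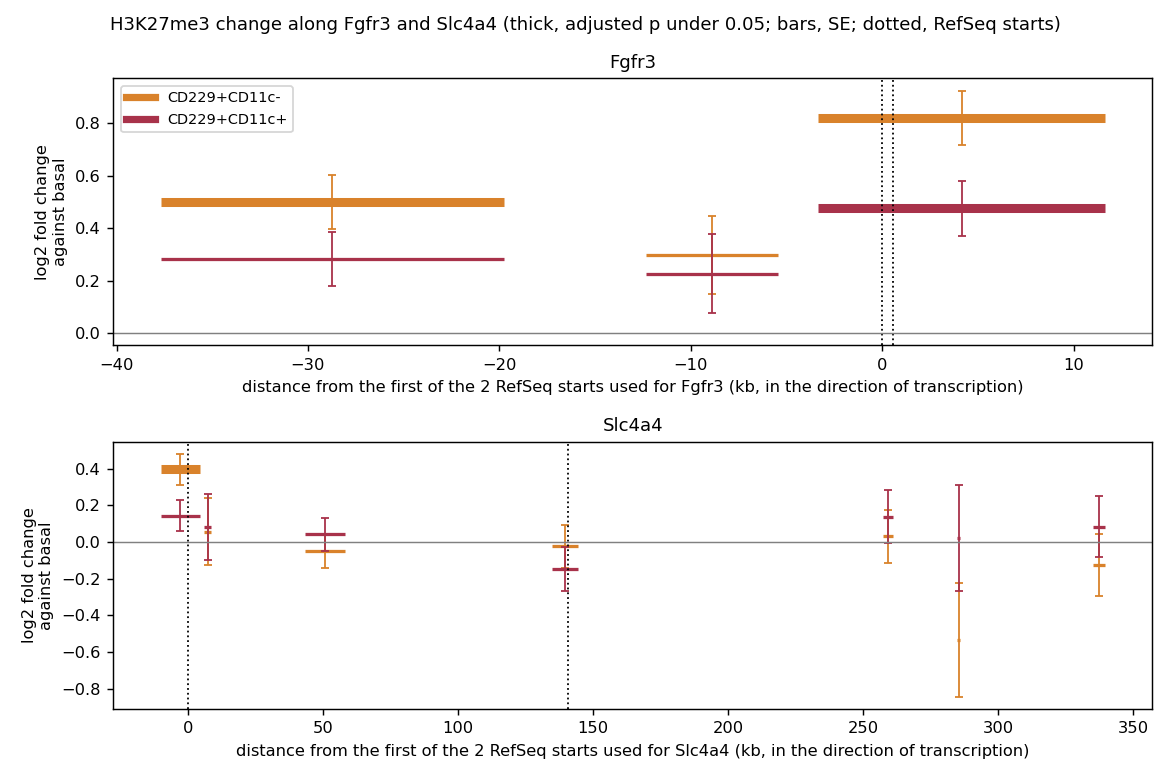
Log2 fold change of H3K27me3 against basal (y axis, bars SE) over the extent of each region along Fgfr3 and Slc4a4 (x axis, kb from the first of the 2 RefSeq starts used), for CD229+CD11c- and CD229+CD11c+ microglia; thick lines have an adjusted p under 0.05 and dotted lines are those starts. At Slc4a4 the only thick line is the CD229+CD11c- one at the upstream start (0.40), and the internal start lies near 0 (-0.02).

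Aldoc went the other way. Its region held 20.1, 18.9 and 22.6 CPM in basal and 17.7, 16.2 and 21.7 CPM in CD229-CD11c- microglia, which overlapped. CD229+CD11c- libraries held 12.2, 15.2 and 10.7 CPM and CD229+CD11c+ libraries 13.98, 16.0 and 15.8 CPM, all below every basal library. The log2 change against basal was -0.70 ± 0.15 (adjusted p = 0.00241) in CD229+CD11c- microglia. In CD229+CD11c+ microglia it was -0.43 ± 0.15 and did not pass (adjusted p = 0.0903), although it passed with total-count scaling (-0.50, adjusted p = 0.0491), with loess offsets (-0.55, adjusted p = 0.0367), with the PE150 tag as covariate (-0.43, adjusted p = 0.0137), in tagged libraries alone (-0.47, adjusted p = 0.016) and in the authors' deposited table (-0.43, adjusted p = 0.049). This value did not pass with DESeq2, with DESeq2 size factors in edgeR, under the other filters, or when any library of either group was left out. Only 1.25% of regions with a TSS within 5 kb had a lower value than Aldoc in CD229+CD11c- against basal microglia. Regions with such a TSS and basal enrichment in the same decile as Aldoc and the Fgfr3 gene (881 regions) had a median of 0.26. The corresponding medians were 0.43 for the decile of Sox9 (1035 regions) and 0.17 for that of the Slc4a4 start (670 regions), so Sox9 at 0.64 and the Slc4a4 start at 0.40 were nearer to their deciles than the Fgfr3 gene at 0.82 was. Over the 12 libraries log2 CPM at Aldoc correlated with the Fgfr3 gene at r = -0.84, with the Slc4a4 start at -0.79 and with Sox9 at -0.74, again as a description.

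In CD229+CD11c+ against basal microglia, 2 of the 12 regions were called, Sox9 and the Fgfr3 gene, both higher. Of all regions 5.79% were called in this comparison, 4.33% higher and 1.47% lower, and of those with a TSS within 5 kb 13.7% were higher and 1.68% lower. With total-count scaling the calls over all regions were 687 higher and 796 lower, against 1139 and 386. Of the 12, the regions of Fgfr3 28.7 kb upstream and of Aldoc did not overlap basal either, and neither passed. In this comparison 27.6% of all regions had groups that did not overlap. CD229-CD11c- against basal microglia gave no call among the 12, and 0% of all regions were called by edgeR, nor any by DESeq2. At an unadjusted p under 0.05 there were 1103 of 26326 regions (4.19%), 2 of them among the 12 (Sox9 and the internal start of Slc4a4). The comparisons share their 3 basal libraries.

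**Figure D3:**
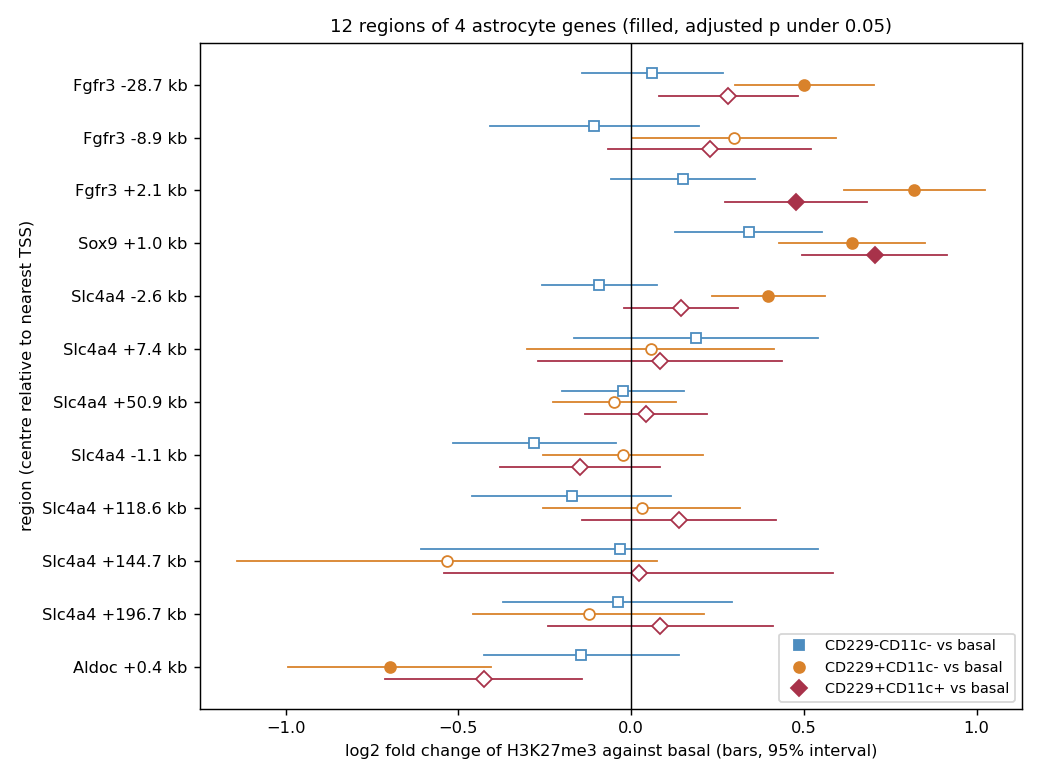
Log2 fold change of H3K27me3 against basal (x axis; bars, 95% interval) for the 12 regions, named by gene and by the distance of the region's centre from the nearest TSS (y axis), in each cuprizone subset; filled symbols have an adjusted p under 0.05. The CD229+CD11c- circles are filled at 4 regions above 0 and at Aldoc (-0.70) below 0, and no CD229-CD11c- square is filled.

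Within the cuprizone-fed mice, CD229+CD11c- and CD229-CD11c- microglia differed at 4 of the 12 regions, against 8.35% of all regions (6.75% higher, 1.6% lower). Those were 1777 and 422 regions, which became 1059 and 1697 with total-count scaling and 472 and 288 with loess offsets. The Fgfr3 gene was higher by 0.67 ± 0.10 (adjusted p = 0.000217), the region 28.7 kb upstream of it by 0.44 ± 0.10 (adjusted p = 0.00792) and the Slc4a4 start by 0.49 ± 0.08 (adjusted p = 0.000526). Aldoc was lower, at -0.56 ± 0.15 (adjusted p = 0.0238), and it did not pass without CD229-CD11c- replicate 3 (-0.42, adjusted p = 0.0948), without CD229+CD11c- replicate 1 (-0.53, adjusted p = 0.0881) or without CD229+CD11c- replicate 3 (-0.45, adjusted p = 0.109). It also fell short in tagged libraries alone (-0.32, adjusted p = 0.201) and in the authors' deposited table (-0.54, adjusted p = 0.0794). The call 28.7 kb upstream of Fgfr3 was lost without CD229+CD11c- replicate 1 (0.36, adjusted p = 0.0651). With loess offsets the Fgfr3 gene (0.38, adjusted p = 0.164), the region 28.7 kb upstream (0.33, adjusted p = 0.1) and the Slc4a4 start (0.30, adjusted p = 0.0853) were no longer called, and Aldoc alone of the 12 was. Sox9 did not pass, with 0.30 ± 0.11 (adjusted p = 0.0985), but did without CD229-CD11c- replicate 1 (0.42, adjusted p = 0.0177). Likewise the region 8.88 kb upstream of Fgfr3 passed only without CD229+CD11c- replicate 3 among the libraries left out (0.53, adjusted p = 0.0452). That region also passed with the PE150 tag as covariate (0.39, adjusted p = 0.0413) and in tagged libraries alone (0.61, adjusted p = 0.00326). Sox9 passed with the covariate (0.30, adjusted p = 0.00154) but not in tagged libraries alone. With the replicate number as a block, which called 17.5% of all regions, Sox9 passed as well (0.30 ± 0.07, adjusted p = 0.000173), as did the region 8.88 kb upstream of Fgfr3 (0.39 ± 0.14, adjusted p = 0.0402).

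CD229+CD11c+ against CD229-CD11c- microglia gave no call among the 12 by edgeR or DESeq2 (0.547% of all regions by edgeR; at an unadjusted p under 0.05 there were 6 of the 12, against 11.2% of all regions). The largest value among the regions at a start was at Sox9, 0.37 ± 0.11 (adjusted p = 0.147), which passed without CD229-CD11c- replicate 1 (0.49, adjusted p = 0.0367). With the replicate block, which called 7.69% of all regions, 4 passed: Sox9 (0.38, adjusted p = 6.51e-06), the Fgfr3 gene (0.34, adjusted p = 0.000104), the Slc4a4 start (0.24, adjusted p = 0.0229) and Fgfr3 28.7 kb upstream (0.23, adjusted p = 0.0246). Between CD229+CD11c+ and CD229+CD11c- microglia none of the 12 was called either (0.824% of all regions; at an unadjusted p under 0.05 there were 3 of the 12, against 12.8% of all regions). The Fgfr3 gene was at -0.34 ± 0.10 (adjusted p = 0.124) and the Slc4a4 start at -0.25 ± 0.08 (adjusted p = 0.167), with no overlap of libraries at either. With the replicate block, which called 8.35% of all regions here, both passed (-0.33, adjusted p = 4.1e-05, and -0.25, adjusted p = 0.0101), as did Fgfr3 28.7 kb upstream (-0.20, adjusted p = 0.0446). DESeq2 called the Fgfr3 gene in that comparison (-0.35, adjusted p = 0.037), and the authors' deposited table has an adjusted p of 0.01 for it.

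CpG content before a start went with the size of the change across the table. This split was chosen after seeing the values of the 4 genes and is a description. It covers the 5246 regions that hold a start with a window in the RefSeq table used. The median log2 change in CD229+CD11c- against basal microglia was 0.01 for the 1826 regions with at most 4 CpGs in the richest window. It was 0.14 for the 1883 with 5 to 14, 0.33 for the 898 with 15 to 24 and 0.38 for the 639 with 25 or more. The share called higher was 10.4%, 27%, 51.8% and 59.9% in that order, and the share called lower 3.34%, 2.28%, 1.89% and 1.10%. Median basal enrichment also differed between these classes, at 1.48, 1.69, 1.90 and 1.87 on the log2 scale. So did the median length of the regions, at 10.9, 11.6, 15.4 and 15.4 kb. The part of either in the pattern was not tested. Fgfr3, with 24 CpGs in its richest window, and the upstream start of Slc4a4, with 44, lie in the upper classes. The internal start of Slc4a4 lies in the lowest and Aldoc, with 5 in its richest window, in the second. Sox9 had no window and is not part of the split.

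**Figure D4:**
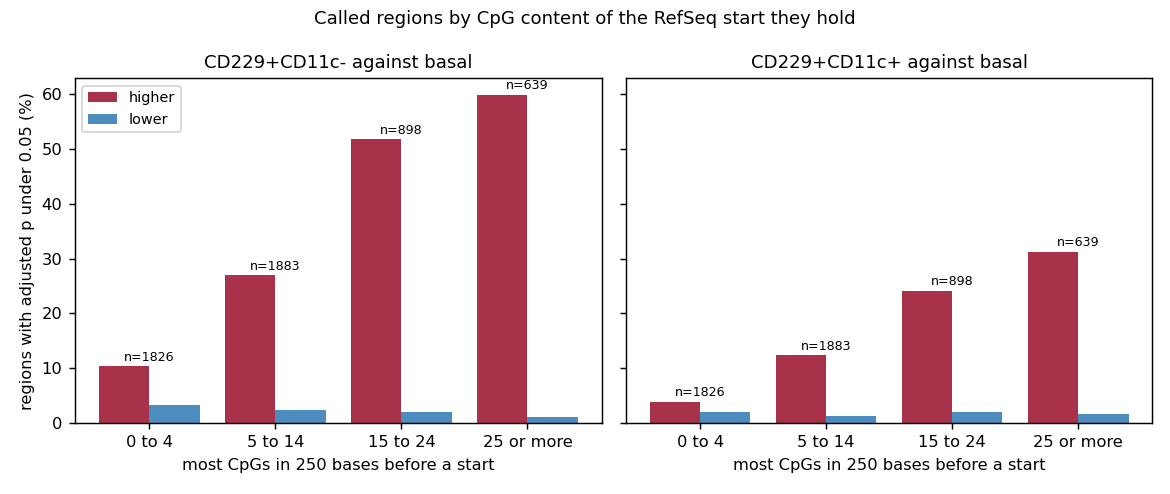
Share of regions called higher or lower than basal (y axis, percent, from 0) by the largest number of CpGs in the 250 bases before any RefSeq start they hold (x axis), for CD229+CD11c- and CD229+CD11c+ microglia; n is the number of regions. In CD229+CD11c- microglia the share called higher goes from 10.4% with 0 to 4 CpGs to 59.9% with 25 or more.

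Other astrocyte genes were called higher at about the background share in CD229+CD11c- microglia. Of the 64 others on a list of 68 astrocyte genes, 32 had a region within 5 kb of the TSS, 1 region each. In CD229+CD11c- against basal microglia 9 of these were higher, 2 lower and 21 not called, next to 28.2% higher and 2.43% lower over the regions near a TSS, with a median of 0.15 that equals the 0.15 found over the 5054 regions near a TSS. In CD229+CD11c+ microglia 1 was higher and 31 were not called, next to 13.7% higher and 1.68% lower over the regions near a TSS. That 1 was Htra1, a secreted serine protease, at 71.9 ± 5.27 CPM in basal, 122.6 ± 7.27 in CD229+CD11c- and 104.7 CPM in CD229+CD11c+ microglia. Gfap, the intermediate filament protein of astrocytes, rose by 0.43 ± 0.07 (adjusted p = 0.000256) in CD229+CD11c- microglia and Gjb6, the gap junction protein connexin 30, by 0.52 ± 0.10 (adjusted p = 0.00134). Lfng, which modifies Notch receptors, rose by 0.87 ± 0.16 (adjusted p = 0.000882). These genes were named for having the smallest p in this comparison, and the 2 lower ones are not named. In CD229+CD11c+ microglia Gfap (0.17, adjusted p = 0.186), Gjb6 (0.26, adjusted p = 0.147) and Lfng (0.18, adjusted p = 0.587) were not called.

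The pathways of the 4 genes were read from lists of their other members, again for regions within 5 kb of a TSS in CD229+CD11c- against basal microglia. The background there is 28.2% higher and 2.43% lower with a median of 0.15, and no list was tested against it. Of 23 regions of FGF ligands, receptors and regulators, 10 were higher and 2 lower, with a median of 0.31. Among them Fgf5, a ligand, rose by 0.59 ± 0.09 (adjusted p = 0.00011) and Spry2, a feedback inhibitor of FGF signalling, by 0.70 ± 0.10 (adjusted p = 2.81e-05). Of 7 regions of other Sox genes, 6 were higher and none lower (median 0.42). Sox1, a transcription factor of neural progenitors, had the largest rise of the Sox regions named, from 120.1 ± 5.61 to 256.5 ± 17.8 CPM (1.09 ± 0.11, adjusted p = 2.31e-06). Of 14 regions of other bicarbonate transporters and carbonic anhydrases 6 were higher and none lower (median 0.31). They included Car2, the soluble carbonic anhydrase 2, at 0.35 ± 0.10 (adjusted p = 0.0231), and Slc26a4, the anion exchanger pendrin, at 0.69 ± 0.09 (adjusted p = 2.16e-05). Taken at all distances from a TSS, with the 4 genes included, the lists had medians nearer 0. Over all regions 9.52% were called higher and 3.47% lower in this comparison. FGF genes had 19 higher and 3 lower of 97 regions (median 0.00), Sox genes 12 and 1 of 38 (0.06) and bicarbonate genes 8 and 0 of 43 (0.06), where all 26326 regions had a median of -0.03.

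Glycolysis genes, the list of Aldoc, had 10 other regions within 5 kb of a TSS. Of these 1 was higher and 1 lower, with a median of -0.00. At all distances, Aldoc included, 2 were higher and 5 lower of 31 regions (median -0.11), next to 9.52% higher and 3.47% lower over all regions. The higher one within 5 kb of a TSS was Fbp1, fructose-1,6-bisphosphatase, at 0.38 ± 0.11 (adjusted p = 0.0253). Hk1, the main brain hexokinase, did not pass (-0.15 ± 0.09, adjusted p = 0.343).

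Some genes of other brain cell types were also higher. Within 5 kb of a TSS, in CD229+CD11c- against basal microglia, 3 of 7 oligodendrocyte lineage regions, 9 of 15 endothelial and mural regions and 10 of 20 neuronal regions were higher and none was lower, beside 28.2% and 2.43% over all such regions. At all distances the counts were 5 higher and 2 lower of 35, 11 and 3 of 63, and 15 and 1 of 79. The shares over all regions were 9.52% higher and 3.47% lower. The lists are not disjoint: Sox18, for one, stands in both the Sox and the endothelial list. Olig2, the transcription factor of oligodendrocyte precursors, rose by 0.59 ± 0.07 (adjusted p = 3.13e-06) and Gad2, which makes the transmitter GABA, by 0.56 ± 0.07 (adjusted p = 8.82e-06). Differences between the lists were not tested.

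The regions whose profile over the 12 libraries was most like that of each gene were named by Pearson's r of log2 CPM, among 3136 regions within 5 kb of a TSS and at or above the median level. Those nearest to the Fgfr3 gene were Emx1, a homeobox transcription factor of the cortex (r = 0.99), the calcium channel subunit gene Cacna1c (0.99) and Cabp7 (0.99). Nearest to Sox9 were Tbx5 (0.99), Pcdh8 (0.98) and Bmp4 (0.97), all with log2 changes of similar size in both CD229+ subsets, such as 0.58 and 0.65 at Bmp4. For the Slc4a4 upstream start they were Pcdh18 (0.95), Pllp (0.94) and Bend4 (0.92), and for its internal start Ctxn2 (0.92), Dleu7 (0.91) and Mir692-3 (0.89). Aldoc was followed most closely by Gm7030 (0.90), Slc2a6, a glucose transporter family member (0.89), and Tdo2, a tryptophan-degrading enzyme (0.87). At Slc2a6 the log2 change was -1.002 for CD229+CD11c- cells and -0.68 for CD229+CD11c+ cells. The points are 12 libraries that share groups and scaling.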

How the data were processed

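H3K27me3 ChIP-seq of sorted microglia was used, with tag counts per region for 12 of 28 libraries (the others are input or were not counted). The submitters' processing notes list fastp 0.20.0, Bowtie2 2.3.4.1, STAR 2.7.0f, DESeq2 and HOMER, and the builds GRCm38 and mm10, without saying what each tool was used for. Per the file headers, the authors called regions with HOMER on basal H3K27me3 replicates 1 and 2 against 2 inputs. The deposited counts are raw tags per region, without input subtraction. The deposited tables also give log2 enrichment over input and the authors' log2 fold changes with p-values, plus normalized signal, scores and region sizes, of which the first 2 are quoted here as the authors' values.

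Libraries held 7740002 to 11362168 tags in regions (median per region 151 to 222). The test was that of edgeR 4.0.16 (R 4.3.3): TMM scaling, filterByExpr (0 regions removed), all 4 groups in 1 robust quasi-likelihood fit, and Benjamini-Hochberg adjustment over the 26326 regions of each of 6 comparisons. SEs were derived from the fold change and F statistic, and log2 CPM used a prior count of 2. The script was tested on simulated counts. Replicates of a group differed by more than counting noise, so none was taken as a repeat deposit. Replicate numbers were taken to pair the CD229-CD11c- libraries with both CD229+ subsets in the replicate block. Same-numbered deviations from group means correlated at 0.28, 0.13 and 0.46 with CD229+CD11c- and at 0.24, 0.13 and 0.42 with CD229+CD11c+ libraries. However, CD229-CD11c- replicate 2 correlated more with replicate 1 of both CD229+ subsets (0.25 and 0.18) than with its own number. Between the CD229+ subsets same-numbered deviations correlated at 0.20, 0.08 and 0.33. Basal libraries share only the number 3 with them.

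The 4 genes and all gene lists were chosen with earlier results of these data known. Named genes were all regions of the 4, from each related list the up to 5 others with the smallest p in CD229+CD11c- against basal, and for each start region the 3 most correlated regions; of these some are described only in counts, and 1 is not reported here. Alternatives were other scalings, DESeq2 1.42.0, filters, the PE150 tag as covariate or as a selection, loess offsets, the replicate block and leaving out each library.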

Additional observations from a re-analysis of the deposited data

Results flagged for a closer look

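Differences between the CD229+CD11c- and CD229-CD11c- subsets, each first compared with basal microglia, stood out at 4 regions, where the test of the difference itself passed (edgeR quasi-likelihood test). They were the Fgfr3 gene (0.67 on the log2 scale, adjusted p = 0.000217) and the region 28.7 kb upstream of it (0.44, adjusted p = 0.00792). The others were the upstream start of Slc4a4 (0.49, adjusted p = 0.000526) and Aldoc (-0.56, adjusted p = 0.0238). In the authors' deposited table the Aldoc difference did not pass (adjusted p = 0.0794).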

How the results depend on the processing

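The 5 calls in CD229+CD11c- against basal microglia at the 4 genes held in every alternative run, except the Slc4a4 start under the loess offsets (0.20). Of 158 values of the 11 called results under alternatives, 146 stayed called and 12 did not; no called value reversed. The only one not given above was the Fgfr3 gene in CD229+CD11c+ against basal under the offsets (0.40, adjusted p = 0.113). The causes were not tested.

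Counts over all regions moved more. For CD229-CD11c- against basal (0) they were 33 with the PE150 tag as covariate and 916 in tagged libraries alone, each with 1 of the 12 regions, Sox9. For CD229+CD11c- against basal (3419) they were 5367 with total-count scaling (1578 higher, 3789 lower, against 2506 and 913), 5828 with the covariate, 5532 in tagged libraries and 1890 with offsets. Total-count scaling moved the median of all regions from -0.03 to -0.16. For CD229+CD11c+ against basal (1525) they were 4538 and 4274 with the covariate and in tagged libraries, each with 4 of the 12. For CD229+CD11c- against CD229-CD11c- (2199) they were 4370 with the covariate (6 of the 12), 3309 in tagged libraries (4 of the 12) and 760 with offsets (1 of the 12). For CD229+CD11c+ against CD229-CD11c- (144, of which 104 higher and 40 lower) they were 351 with DESeq2, 1638 with the covariate (4 of the 12) and 933 in tagged libraries (1 of the 12), with 60 higher and 50 lower under total-count scaling and 76 and 61 under offsets. For CD229+CD11c+ against CD229+CD11c- (217, of which 14 higher and 203 lower) they were 28 with total-count scaling, 668 with DESeq2 (1 of the 12), 1920 with the covariate (2), 1397 in tagged libraries (2) and 45 with offsets (20 higher, 25 lower).

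The replicate block in the cuprizone subsets alone called 4595 regions in CD229+CD11c- against CD229-CD11c-, 2025 in CD229+CD11c+ against CD229-CD11c- (4 of the 12) and 2199 in CD229+CD11c+ against CD229+CD11c- (3 of the 12, all lower). Beside the calls it added, it changed no other call of the 12. Not every library correlated best with its own number. Replicate 3 is also the untagged library of each subset. No paired analysis was possible against basal because only the number 3 is shared.

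Leaving out each library gave, in the order of comparisons above, 0 to 30, 2084 to 3294, 442 to 1605, 1532 to 2576, 44 to 271 and 9 to 157 regions, and 0 to 1, 5 to 5, 1 to 2, 2 to 5, 0 to 1 and 0 to 0 of the 12. The 2084 came without basal replicate 4 and the 30 without CD229-CD11c- replicate 3. CD229+CD11c+ against basal gave 442, 869 and 1012 without basal replicates 4, 3 and 5, and 459 and 599 without CD229+CD11c+ replicates 1 and 2. CD229+CD11c+ against CD229-CD11c- gave 68 and 271 without CD229-CD11c- replicates 2 and 3, and 44 and 59 without CD229+CD11c+ replicates 1 and 2. CD229+CD11c+ against CD229+CD11c- gave 64, 39 and 14 without CD229+CD11c- replicates 1, 2 and 3, and 10 and 9 without CD229+CD11c+ replicates 1 and 2. The shortest Slc4a4 region held the fewest tags of the 12, 11 to 42 per library.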
